A study of Homo sapiens with 9 samples.

Results

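The genes described here were 10 genes of ferroptosis and of cellular iron handling, *SLC7A11*, *GPX4*, *AIFM2*, *ACSL4*, *LPCAT3*, *TFRC*, *FTH1*, *FTL*, *NCOA4* and *SLC40A1*. They were found by matching the NCBI gene identifiers of the count table to these symbols, and all 10 were present among the 28395 genes listed. RNA had been sequenced from HK2, a proximal tubule line from normal kidney, from 786-O, a line of a primary clear cell renal cell carcinoma (ccRCC) without functional *VHL*, and from 786-M1A, a derivative of 786-O obtained from lung metastases that formed in vivo. No line had been treated, and all of them were kept stably in full Plasmax, a medium that resembles human plasma. Each line had 3 libraries, 9 in all, with between 30212291 and 45362428 reads counted on genes. Each genotype is a single line, HK2 was immortalized with human papillomavirus genes, and HK2 and 786-O come from different people. A difference between them cannot be told apart from a difference between donors. RNA came from replicate dishes, so p-values measure the spread between dishes, which may be technical. Of the defining markers checked, *LRP2*, *SLC22A6* and *SLC22A8* of the proximal tubule were at 0 in HK2, and *CA9* of ccRCC had at most 3 counts in any library. Other markers of both lists were present and are given below.

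Ferroptosis is a form of cell death in which iron drives the oxidation of polyunsaturated fatty acids in membrane phospholipids. Cells hold it back with glutathione, which is made from imported cystine and used by the peroxidase GPX4 to reduce lipid peroxides, and with ubiquinol, which AIFM2 regenerates. Free iron depends on uptake by the transferrin receptor, on storage in ferritin, on the breakdown of ferritin in lysosomes and on export by ferroportin. Renal carcinoma cells of the clear cell type are known to be sensitive to the inhibition of GPX4, and the proximal tubule handles filtered iron.

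Transcripts of iron genes carry iron responsive elements (IREs), short hairpins that the iron regulatory proteins bind when iron is scarce. In a 5′ UTR the bound hairpin blocks translation, and in the 3′ UTR of *TFRC* it protects the mRNA from decay. The hairpins of the members are shown because genes of iron uptake, storage and export share them. The motif searched on the transcript strand was a C, 5 bases, the loop CAGTGN and 5 bases that pair with the first 5, with G to T pairs allowed. It was present in 4 of the 10 members and in 1.34% of the 19061 MANE Select transcripts of GENCODE release 44. The members include genes of iron uptake, storage and export, so a higher share among them is not an independent result. An excess was not tested. In the 5′ UTR it was found in 0.0997% of them, and in the 3′ UTR in 0.635%. The sequences below are from GRCh38, read 5′ to 3′ on the transcript strand, with the loop in capitals.
FTH1, 5′ UTR, chr11:61967575-61967601, minus strand: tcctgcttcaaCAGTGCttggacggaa
FTL, 5′ UTR, chr19:48965336-48965362, plus strand: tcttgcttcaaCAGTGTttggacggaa
SLC40A1, 5′ UTR, chr2:189580662-189580688, minus strand: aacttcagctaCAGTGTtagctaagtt
TFRC, 3′ UTR, chr3:196050980-196051006, minus strand: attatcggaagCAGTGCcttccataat
TFRC, 3′ UTR, chr3:196050576-196050602, minus strand: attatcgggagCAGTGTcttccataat
TFRC, 3′ UTR, chr3:196050511-196050537, minus strand: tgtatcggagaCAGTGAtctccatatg
TFRC, 3′ UTR, chr3:196050464-196050490, minus strand: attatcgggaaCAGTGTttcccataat
Both ferritin transcripts had the match near their start, and *TFRC* had 4 matches in its 3′ UTR. The motif requires all 5 pairs and this loop, so hairpins of another form would be missed. The 4 genes with a match were lower in both carcinoma lines than in HK2, as were 4 members without a match (*AIFM2*, *ACSL4*, *LPCAT3* and *NCOA4*). The match is a description of sequence, and no binding was measured.

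Against HK2, the members were mostly lower in the carcinoma lines. In 786-O, 8 members were lower, *SLC7A11* was higher and *GPX4* did not pass the test. In 786-M1A, *SLC7A11* and *GPX4* were higher and the other 8 members lower. The test was edgeR's quasi-likelihood test on the 12695 genes whose mean over the libraries reached 50 counts, with p-values adjusted by Benjamini-Hochberg and a threshold of 0.05. All 10 members passed that filter, *SLC40A1* only through its counts in HK2. Most genes differed between these lines, so these counts are read against the background. For 786-O against HK2, 84.2% of all genes tested were called, 41.7% higher and 42.5% lower, and for 786-M1A against HK2, 85.0% were called, 42.0% higher and 42.9% lower. A count of 9 or 10 members called of 10 was therefore near the background. The 8 lower members of 10 stand beside 42.5% and 42.9% of all genes. That is a description only, because the members were chosen with earlier results of these data known, and an excess was not tested. Log2 fold changes (log2FC) are given ± their standard error. The median log2FC of the members was -0.43 in 786-O and -0.44 in 786-M1A, beside -0.012 and -0.010 over all genes tested. Both comparisons use the same HK2 libraries. In RNA of whole cultures, fewer cells with a transcript and less of it per cell cannot be told apart.

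**Figure D1:**
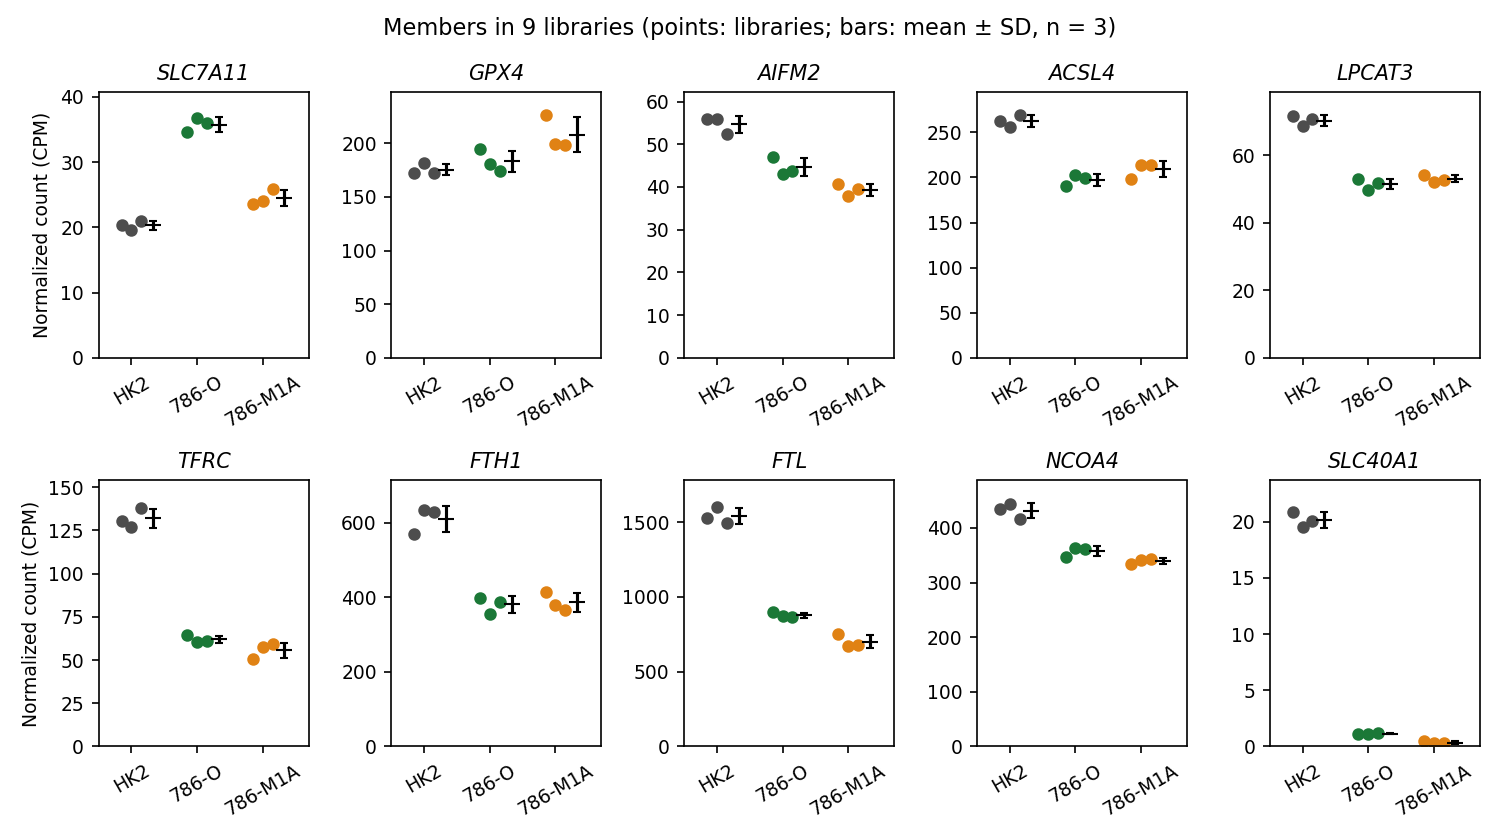
Normalized counts (CPM, y axis, starting at 0 on a scale of its own for each gene) of the 10 members in HK2, 786-O and 786-M1A; points are libraries and bars the mean ± SD of 3 libraries. Apart from *SLC7A11* and *GPX4*, the HK2 libraries lie above those of both carcinoma lines for each gene, and *SLC40A1* drops from 20.2 ± 0.682 CPM in HK2 to 0.350 ± 0.106 CPM in 786-M1A.

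*SLC7A11* (NCBI gene 23657, chromosome 4 of GRCh38, 138164097 to 138242349) encodes the cystine-importing subunit of system xc-, which brings in the precursor of glutathione. Its normalized counts (CPM, relative to the library total after TMM correction) were 20.3, 19.5 and 21.0 in the HK2 libraries. They were 34.6, 36.7 and 35.9 CPM in 786-O and 23.5, 24.1 and 25.8 CPM in 786-M1A. The libraries of the 3 lines did not overlap, with 786-O the highest and 786-M1A between it and HK2. In 786-O *SLC7A11* was 1.76-fold above HK2 (log2FC 0.82 ± 0.052, edgeR adjusted p = 4.12e-12). In 786-M1A it was 1.21-fold above HK2 (log2FC 0.27 ± 0.054, edgeR adjusted p = 1.07e-04). Between the carcinoma lines it was lower in 786-M1A by a log2FC of -0.55 ± 0.051 (edgeR adjusted p = 1.16e-08).

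*GPX4* (NCBI gene 2879, chromosome 19, 1103994 to 1106779) encodes the selenium-containing peroxidase that reduces oxidized phospholipids inside membranes. It had 172, 181 and 172 CPM in HK2, 194, 181 and 175 CPM in 786-O and 227, 199 and 198 CPM in 786-M1A. The 786-O libraries overlapped with those of HK2, and the 786-M1A libraries lay above all others, replicate 1 farthest. The difference between 786-O and HK2 did not pass the test (log2FC 0.063 ± 0.051, edgeR adjusted p = 0.253), and an exact two-sided permutation test gave p = 0.3. *GPX4* in 786-M1A was above HK2 by a log2FC of 0.25 ± 0.051 (edgeR adjusted p = 1.96e-04) and above 786-O by 0.18 ± 0.051 (edgeR adjusted p = 0.00493). With limma on quantile-normalized log2 counts neither passed, at 0.14 (adjusted p = 0.0579) and 0.16 (adjusted p = 0.0638). Without replicate 1 of 786-M1A the difference from 786-O was 0.12 and was still called.

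*AIFM2* (NCBI gene 84883, chromosome 10, 70112271 to 70132825) encodes FSP1, an oxidoreductase that keeps ubiquinone reduced in membranes and acts in parallel to GPX4. Its levels were 55.8, 55.9 and 52.4 CPM in HK2, 47.0, 43.1 and 43.8 CPM in 786-O and 40.6, 37.8 and 39.4 CPM in 786-M1A. The 3 lines did not overlap and stood in the order HK2, 786-O, 786-M1A. *AIFM2* was lower in 786-O by a log2FC of -0.29 ± 0.047 (edgeR adjusted p = 8.14e-06) and in 786-M1A by -0.48 ± 0.048 (edgeR adjusted p = 7.82e-09). Between 786-M1A and 786-O the log2FC was -0.18 ± 0.048 (edgeR adjusted p = 0.00286). *GPX4* and *AIFM2*, both of which act against lipid peroxides, therefore differed in opposite directions between 786-M1A and either other line in the edgeR fit. With limma on quantile-normalized log2 counts the directions were the same, but neither difference of *GPX4* passed. *AIFM2* shares 12 exon bases with *MACROH2A2* on the opposite strand, which had between 1 and 3002 counts.

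*ACSL4* (NCBI gene 2182, chromosome X, 109641335 to 109733257) encodes the ligase that activates arachidonic and adrenic acid, and *LPCAT3* (NCBI gene 10162, chromosome 12, 6976185 to 7018476) the acyltransferase that inserts such acids into phospholipids. These are the substrates that are oxidized in ferroptosis. *ACSL4* had 263, 256 and 269 CPM in HK2, 190, 203 and 199 CPM in 786-O and 199, 214 and 214 CPM in 786-M1A. *LPCAT3* had 71.6, 68.6 and 70.7 CPM in HK2, 52.9, 49.8 and 51.7 CPM in 786-O and 54.2, 52.1 and 52.8 CPM in 786-M1A. For both genes the HK2 libraries lay above all those of the carcinoma lines, and the libraries of the carcinoma lines overlapped.

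Relative to HK2, the log2FC of *ACSL4* in 786-O was -0.41 ± 0.039 (edgeR adjusted p = 3.72e-09) and in 786-M1A it was -0.33 ± 0.039 (edgeR adjusted p = 1.135e-07). *LPCAT3* was lower by -0.45 ± 0.041 in 786-O (edgeR adjusted p = 1.98e-09) and -0.41 ± 0.042 in 786-M1A (edgeR adjusted p = 9.35e-09). Between the carcinoma lines neither passed the test. The log2FC of *ACSL4* was 0.082 ± 0.040 (edgeR adjusted p = 0.0830), and without replicate 1 of 786-M1A it was called, at 0.12 (edgeR adjusted p = 0.0133). That of *LPCAT3* was 0.042 ± 0.042 (edgeR adjusted p = 0.418). *LPCAT3* shares 1506 exon bases with *EMG1* on the opposite strand, which had between 1590 and 2582 counts per library, and the sources used here do not say whether strand entered the counting. *EMG1* itself was lower in 786-O by a log2FC of -0.35 (edgeR adjusted p = 1.15e-06) and in 786-M1A by -0.37 (edgeR adjusted p = 4.47e-07), and its part in the *LPCAT3* counts was not tested.

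*ACSL3*, which activates monounsaturated fatty acids and is known to work against the effect of *ACSL4*, went the other way. It had 211 ± 4.06 CPM (SD, n = 3) in HK2, against 286 ± 4.22 in 786-O and 274 ± 2.68 in 786-M1A. It exceeded HK2 in 786-O by a log2FC of 0.44 (edgeR adjusted p = 1.02e-10) and in 786-M1A by 0.38 (edgeR adjusted p = 1.19e-09). The count ratio of *ACSL4* to *ACSL3* within a library, which does not depend on scaling, was 1.24, 1.24 and 1.25 in HK2. It was 0.659, 0.724 and 0.692 in 786-O and 0.733, 0.782 and 0.775 in 786-M1A. *ACSL4* thus had more counts than *ACSL3* in each HK2 library and fewer in each carcinoma library. These counts are not divided by exon length, so they do not rank the 2 genes. Per kilobase of merged exons *ACSL4* had 26.3, 19.8 and 21.0 CPM and *ACSL3* 14.6, 19.8 and 19.0 CPM (HK2, 786-O, 786-M1A). With MANE Select exon lengths *ACSL4* had 53.7, 40.4 and 42.7 CPM per kilobase and *ACSL3* 37.8, 51.2 and 49.1. On the log2 scale the ratio differed from HK2 by -0.85 in 786-O and by -0.71 in 786-M1A, and between 786-M1A and 786-O by 0.14. Each had p = 0.1 in an exact two-sided permutation test, the smallest that 3 libraries against 3 allow.

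*TFRC* (NCBI gene 7037, chromosome 3, 196049284 to 196082090) encodes the transferrin receptor, through which most cells take up iron. Its levels were 131, 127 and 138 CPM in HK2, 64.5, 60.5 and 61.2 CPM in 786-O and 50.9, 57.3 and 59.0 CPM in 786-M1A. The HK2 libraries were far above the others, and the 786-M1A libraries lay just below those of 786-O. *TFRC* was 2.13-fold lower in 786-O (log2FC -1.09 ± 0.050, edgeR adjusted p = 1.89e-14) and 2.37-fold lower in 786-M1A (log2FC -1.24 ± 0.051, edgeR adjusted p = 2.09e-15). Between 786-M1A and 786-O the log2FC was -0.15 ± 0.052 (edgeR adjusted p = 0.0156). This last call was lost without replicate 1 of 786-M1A, at -0.094 (edgeR adjusted p = 0.0955), and without replicate 1 of 786-O, at -0.13 (edgeR adjusted p = 0.0673).

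Ferritin stores iron in a shell of heavy chains, encoded by *FTH1* (NCBI gene 2495, chromosome 11, 61964285 to 61967634) and able to oxidize iron, and light chains, encoded by *FTL* (NCBI gene 2512, chromosome 19, 48965309 to 48966879). *FTL* had 1530, 1599 and 1494 CPM in HK2, 898, 873 and 865 CPM in 786-O and 749.6, 674 and 677 CPM in 786-M1A. *FTH1* had 570.1, 633 and 628 CPM in HK2, 398, 356 and 388 CPM in 786-O and 415, 379 and 365 CPM in 786-M1A. The 3 lines were separate for *FTL*, whereas for *FTH1* the libraries of the carcinoma lines overlapped. *FTL* was 1.75-fold lower in 786-O (log2FC -0.81 ± 0.040, edgeR adjusted p = 4.65e-14) and 2.20-fold lower in 786-M1A (log2FC -1.14 ± 0.040, edgeR adjusted p = 1.24e-16). It was also lower in 786-M1A than in 786-O, by a log2FC of -0.33 ± 0.040 (edgeR adjusted p = 5.38e-07).

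*FTH1* was 1.60-fold lower in 786-O (log2FC -0.68 ± 0.054, edgeR adjusted p = 6.62e-09) and 1.58-fold lower in 786-M1A (log2FC -0.66 ± 0.054, edgeR adjusted p = 9.15e-09). Between the carcinoma lines it did not pass the test (log2FC 0.021 ± 0.054, edgeR adjusted p = 0.769, exact permutation p = 0.9). RefSeq names 27 pseudogenes of *FTH1* and 20 of *FTL*, near-identical copies that can share reads with them, and the sources used here do not say how reads matching several places were counted. The table lists 1 of each, that of *FTL* at 0 counts and *FTH1P3* at between 1.26% and 2.10% of the *FTH1* count of a library.

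The ratio of heavy to light ferritin chain transcripts was highest in 786-M1A. The count ratio of *FTH1* to *FTL* was 0.373, 0.396 and 0.420 in HK2, 0.443, 0.408 and 0.449 in 786-O and 0.554, 0.563 and 0.539 in 786-M1A. The 786-M1A libraries lay above all others, and those of HK2 and 786-O overlapped. As a difference of log2 ratios this was 0.48 between 786-M1A and HK2 and 0.35 between 786-M1A and 786-O, both with the smallest exact permutation p of 0.1. Between 786-O and HK2 it was 0.13 (exact permutation p = 0.2). The ratio of *TFRC* to *FTH1*, an uptake gene to a storage gene, was 0.229, 0.201 and 0.220 in HK2, 0.162, 0.170 and 0.158 in 786-O and 0.123, 0.151 and 0.162 in 786-M1A. It was lower than in each HK2 library in both carcinoma lines, by log2 differences of -0.41 and -0.58 (exact permutation p = 0.1 for both). The carcinoma lines overlapped, with a log2 difference of -0.18 (exact permutation p = 0.2) that was -0.060 without replicate 1 of 786-M1A.

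**Figure D2:**
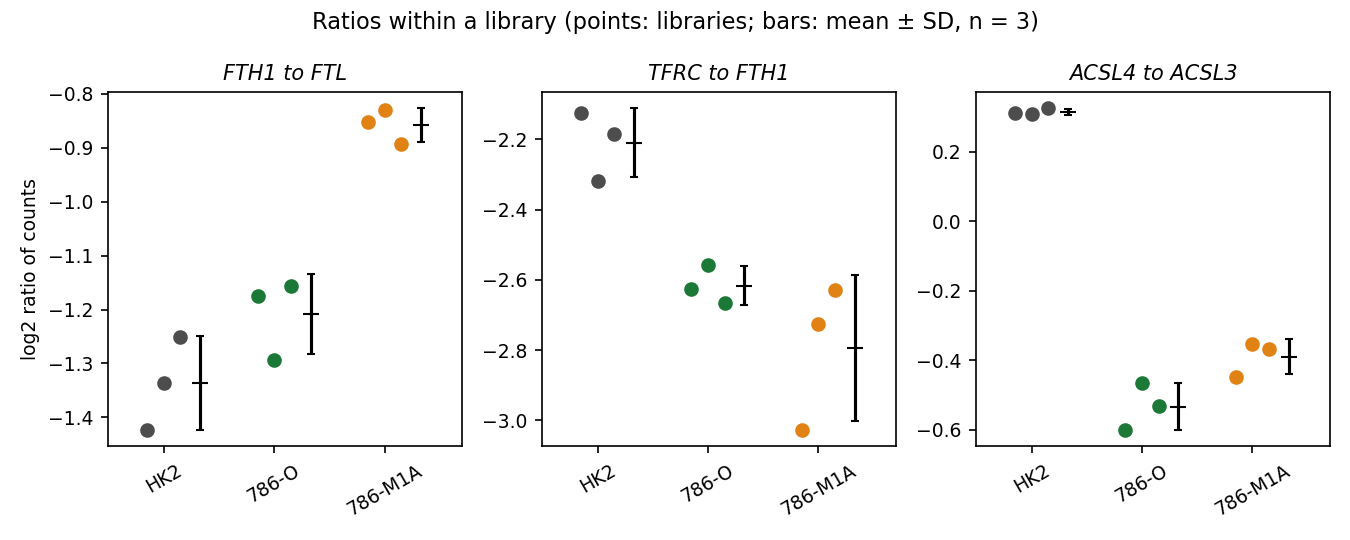
Log2 ratio of the counts of 2 genes in the same library (y axis, own scale in each panel, not starting at 0) for *FTH1* to *FTL*, *TFRC* to *FTH1* and *ACSL4* to *ACSL3* in the 3 lines; points are libraries and bars the mean ± SD of 3 libraries. For *FTH1* to *FTL* the 786-M1A libraries (mean -0.86 ± 0.032) lie above those of HK2 (-1.34 ± 0.087) and 786-O (-1.21 ± 0.074), and for *ACSL4* to *ACSL3* only HK2 lies above 0. Counts were not divided by exon length, so the position of 0 does not compare the levels of 2 genes.

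*NCOA4* (NCBI gene 8031, chromosome 10, 46005088 to 46030623) encodes the receptor that carries ferritin to the lysosome, where its iron is released. It had 434, 444 and 416 CPM in HK2, 347, 364 and 362 CPM in 786-O and 334, 342 and 343 CPM in 786-M1A. Its lines were separate, HK2 the highest and 786-M1A just below 786-O. The log2FC against HK2 was -0.27 ± 0.035 in 786-O (edgeR adjusted p = 4.29e-07) and -0.35 ± 0.035 in 786-M1A (edgeR adjusted p = 9.76e-09). Between 786-M1A and 786-O it was -0.075 ± 0.035 (edgeR adjusted p = 0.0762), which did not pass. This difference was called under 4 of the alternatives, among them the fit without replicate 1 of 786-O, at -0.098 (edgeR adjusted p = 0.0438).

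*SLC40A1* (NCBI gene 30061, chromosome 2, 189560590 to 189580786) encodes ferroportin, the only iron exporter known in mammalian cells, and was the member with the widest range. Its raw counts were 652, 789 and 929 in HK2, 51, 41 and 50 in 786-O and 17, 11 and 11 in 786-M1A. This was 20.9, 19.5 and 20.0 CPM in HK2, 1.15, 1.09 and 1.18 CPM in 786-O and 0.473, 0.287 and 0.291 CPM in 786-M1A. The 3 lines were far apart, and all libraries lay above the limit of 3 counts, at most 0.0993 CPM. *SLC40A1* was 17.6-fold lower in 786-O (log2FC -4.14 ± 0.097, edgeR adjusted p = 1.09e-19) and 57.3-fold lower in 786-M1A (log2FC -5.84 ± 0.125, edgeR adjusted p = 1.93e-20). From summed counts, the ratio of HK2 to 786-M1A had a 95% interval of 42.1 to 81.4 and that of HK2 to 786-O of 14.9 to 21.0, for counting error only. With limma on quantile-normalized log2 counts the log2FC was -4.04 in 786-O and -4.79 in 786-M1A, the latter a smaller difference than in edgeR. *SLC40A1* was also 3.25-fold lower in 786-M1A than in 786-O (log2FC -1.70 ± 0.218, edgeR adjusted p = 1.06e-06). With limma that difference was -0.75 (adjusted p = 5.37e-04). *SLC40A1* entered these tests only through its counts in HK2. Its mean over the 6 carcinoma libraries was 30.2 counts, below the filter of 50.

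**Figure D3:**
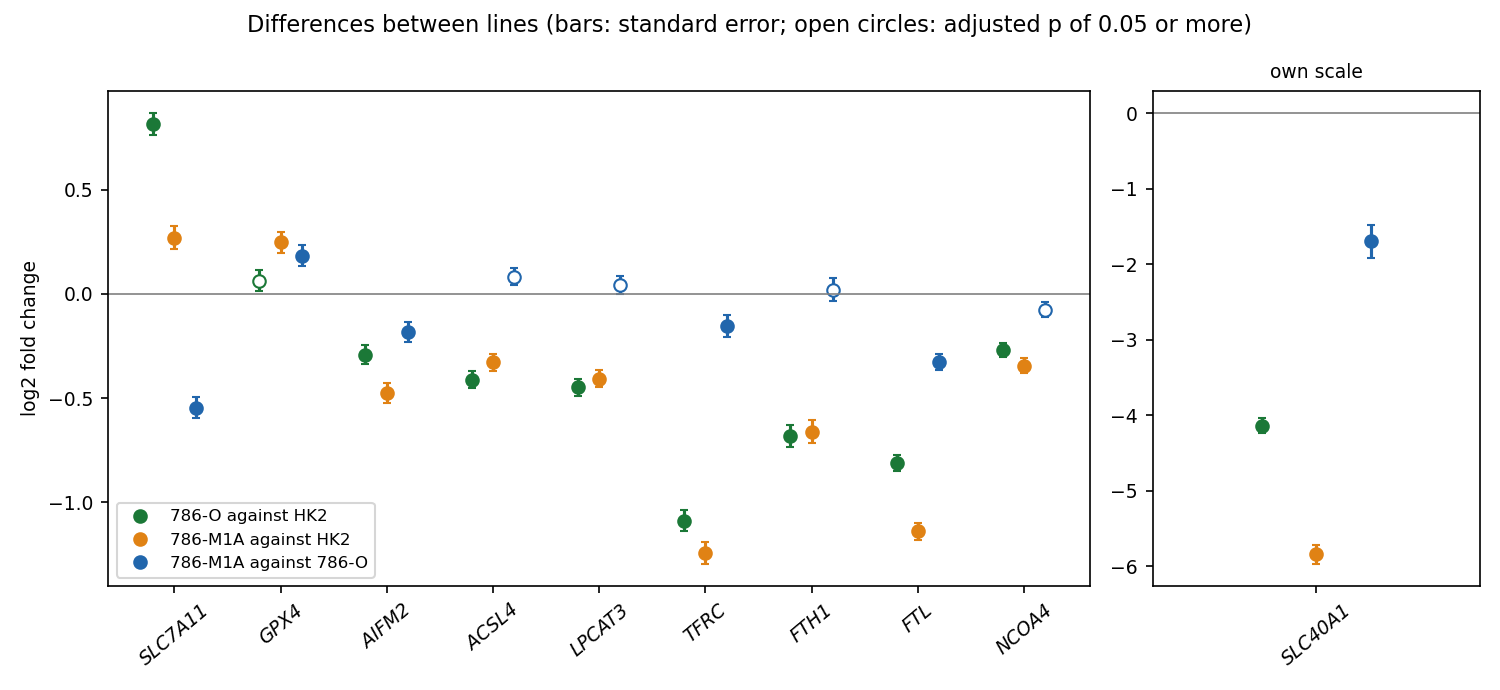
Log2 fold change (y axis, *SLC40A1* on a scale of its own) of each member for 786-O against HK2, 786-M1A against HK2 and 786-M1A against 786-O, from edgeR; bars are standard errors and open circles did not pass the adjusted p threshold of 0.05. Most points against HK2 are below 0, the lowest *SLC40A1* at -5.84, and *SLC7A11* is the highest at 0.82 in 786-O.

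Differences of at least 2-fold were about as frequent as over all genes. In 786-O they were *TFRC* and *SLC40A1*, and in 786-M1A also *FTL*, all lower, beside 22.3% and 25.4% of all genes tested in either direction. The libraries of the 2 lines compared did not overlap for 9 members in 786-O against HK2 and for 10 in 786-M1A against HK2, beside 85.5% and 85.0% of all genes. Each such gene had an exact permutation p of 0.1.

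Between 786-M1A and 786-O, 6 of the 10 members were called, *GPX4* higher and *SLC7A11*, *AIFM2*, *TFRC*, *FTL* and *SLC40A1* lower. Of all genes tested 56.2% were called, 29.0% higher and 27.1% lower, so the share called was close to the background. The median log2FC of the members was -0.11, beside 0.0071 over all genes. Only *SLC40A1* differed by at least 2-fold, which 6.55% of all genes did. *SLC40A1* was tested here only through its counts in HK2, a line outside this comparison. Its mean over the carcinoma libraries was 30.2 counts, below the filter, and with limma on quantile-normalized log2 counts its log2FC was -0.75. Libraries did not overlap for 7 members, beside 61.7% of all genes. In the metastatic line *SLC7A11* was nearer to HK2 than in 786-O, whereas *GPX4*, *FTL*, *AIFM2*, *TFRC* and *SLC40A1* were farther from HK2.

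Levels of different genes were compared as CPM per kilobase of merged exons. *FTL* was the highest member in each line, at 1769.5 ± 61.2 in HK2, 1009 ± 19.4 in 786-O and 804 ± 49.2 CPM per kilobase in 786-M1A (SD, n = 3), followed by *FTH1* at 305 ± 17.5, 190.03 ± 10.9 and 193 ± 12.9. *NCOA4* came next in HK2, at 108 ± 3.47 against 95.3 ± 2.85 for *GPX4*, and in the carcinoma lines *GPX4* came before it, at 99.5 ± 5.46 and 113 ± 8.75 against 89.7 ± 2.27 and 85.2 ± 1.22. *ACSL4* (26.3 ± 0.648, 19.8 ± 0.677 and 21.0 ± 0.894), *LPCAT3* (14.98 ± 0.331, 10.97 ± 0.338 and 11.3 ± 0.222) and *AIFM2* (10.6 ± 0.389, 8.69 ± 0.407 and 7.66 ± 0.274) followed in that order in each line. At the low end *TFRC* had 7.59 ± 0.322, 3.57 ± 0.121 and 3.21 ± 0.248, *SLC7A11* 2.10 ± 0.0774, 3.71 ± 0.114 and 2.54 ± 0.123, and *SLC40A1* 4.78 ± 0.162, 0.269 ± 0.0112 and 0.0831 ± 0.0252. In 786-O *SLC7A11* and *TFRC* were close on this scale. That depends on the length taken, since with the exon length of the MANE Select transcript, an alternative chosen after seeing the data, *TFRC* had 12.4 CPM per kilobase and *SLC7A11* 3.71 in 786-O. With that length *GPX4* (206) was above *NCOA4* (125) and *TFRC* (26.3) above *AIFM2* (17.4) in HK2.

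For *TFRC*, *FTL* and *SLC40A1*, whose highest and lowest line means differed by at least 1 on the log2 CPM scale, the genes with the most similar pattern were sought among all genes tested. Likeness was the root mean square difference of log2 CPM over the 9 libraries, each gene centred on its mean. For *TFRC* they were *MBIP* (0.052), *PM20D2* (0.060) and *CENPBD1P* (0.064), and for *FTL* they were *TFB2M* (0.047), *MTG1* (0.051) and *ZC3H10* (0.054). For *SLC40A1* they were *MMP1* (0.19), *PNMA6A* (0.20) and *FCGRT* (0.24). These larger values do not show a looser match, since its line means ranged over 5.69, beside 1.24 for *TFRC* and 1.14 for *FTL*. *PNMA6A* had only 0.091 ± 0.066 CPM in 786-M1A, near the limit of 3 counts. *MMP1*, a collagenase, had 91.9 ± 9.28 CPM in HK2, against 5.56 ± 0.563 in 786-O and 1.66 ± 0.0562 in 786-M1A.

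Around the members, 69 further genes of these pathways were listed, and 62 of them were tested. In 786-O 28 were higher and 33 lower than in HK2, and in 786-M1A 25 were higher and 30 lower. Between 786-M1A and 786-O, 22 were higher and 19 lower, and 21 did not pass. The medians of their log2FC values were -0.12, -0.12 and 0.022. These genes were thus divided between both directions. In all, 61, 55 and 41 of the 62 were called in the 3 comparisons, beside 84.2%, 85.0% and 56.2% of all genes tested.

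Among the 10 genes of cystine and glutathione supply, 3 were higher and 6 lower in 786-O, and 3 were higher and 6 lower in 786-M1A. Over all genes tested, 41.7% were higher and 42.5% lower in 786-O, and 42.0% and 42.9% in 786-M1A. *SLC3A2*, the partner subunit of SLC7A11, had 84.5 ± 2.98 CPM in HK2, against 183 ± 6.91 in 786-O and 215 ± 5.79 in 786-M1A (SD, n = 3). Its log2FC values against HK2 were 1.11 and 1.35, and in 786-M1A, unlike *SLC7A11*, it exceeded 786-O by 0.24 (edgeR adjusted p = 2.73e-05). The enzymes that make cysteine from methionine were low in the carcinoma lines. *CBS* fell from 21.3 ± 0.662 CPM in HK2 to 5.56 ± 0.465 in 786-O and 2.64 ± 0.476 in 786-M1A, and *CTH* from 8.94 ± 0.587 to 2.87 ± 0.169 and 1.88 ± 0.275. Between the carcinoma lines *CBS* differed by a log2FC of -1.08 (edgeR adjusted p = 6.31e-08). *TXNRD1*, a thioredoxin reductase, had 834 ± 18.8 CPM in HK2, against 371 ± 8.34 in 786-O and 442 ± 11.2 in 786-M1A.

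Of 10 other genes of defence against lipid radicals, 5 were higher and 5 lower in 786-O, and 3 were higher and 5 lower in 786-M1A. These counts stand beside 84.2% and 85.0% of all genes tested that were called in either direction. *GCH1*, which makes the antioxidant tetrahydrobiopterin, was the gene of this list with a difference of at least 2-fold. It had 16.1 ± 0.288 CPM in HK2, against 7.71 ± 0.660 in 786-O and 5.06 ± 0.182 in 786-M1A, and its log2FC values against HK2 were -1.06 and -1.67 (edgeR adjusted p = 7.35e-12 and 1.05e-14).

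The list of lipid substrate and oxidation genes had 15 members, of which 12 were tested. Of these, 8 were higher and 4 lower in 786-O, and 7 were higher and 3 lower in 786-M1A. Called in either direction were 84.2% and 85.0% of all genes tested in the same comparisons. *FADS2*, the first desaturase in the making of polyunsaturated fatty acids, had 26.2 ± 0.0947 CPM in HK2, against 506 ± 31.4 in 786-O and 605 ± 37.9 in 786-M1A, log2FC values of 4.27 and 4.53 (edgeR adjusted p = 1.96e-22 and 8.12e-23). *ACSL1*, another long-chain ligase, had 11.5 ± 0.633, 28.9 ± 0.183 and 88.5 ± 2.21 CPM and was 3.06-fold higher in 786-M1A than in 786-O (log2FC 1.61, edgeR adjusted p = 2.19e-17). *FADS2* and *ACSL1* were thus higher where *ACSL4* and *LPCAT3* were lower. The lipoxygenase genes *ALOX15* and *ALOX15B* had at most 1 count in a library and *ALOX5* between 1 and 13, below the filter.

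Of 22 further genes of iron uptake, export and sensing, 18 were tested. In 786-O 8 were higher and 10 lower, with the same numbers in 786-M1A, and the largest differences were in *TFR2* and *CP*. As background, 84.2% and 85.0% of all genes tested were called in these comparisons. *TFR2*, a second transferrin receptor that senses iron, had 14.2 ± 1.4995 CPM in HK2, 0.0800 ± 0.00962 in 786-O, where its counts were 3, 3 and 4, and 0.431 ± 0.122 in 786-M1A. From summed counts HK2 was above 786-O by 175 times (95% interval 94.8 to 365, counting error only) and above 786-M1A by 32.7 times (24.6 to 44.6). *CP*, the ferroxidase ceruloplasmin that works with ferroportin, had 5, 6 and 10 counts in HK2 and 65.7 ± 7.15 CPM in 786-O and 67.2 ± 6.80 in 786-M1A. This was 368 times (240.4 to 594) and 378 times (247 to 612) above HK2. *CP* passed the filter only through its counts in the carcinoma lines, and *TFR2* only through those in HK2. The ferroxidase was thus far higher, and the exporter *SLC40A1* far lower, in the carcinoma lines than in HK2.

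The iron regulatory proteins that bind IREs are encoded by *ACO1* and *IREB2*. *ACO1* had 165 ± 1.67 CPM in HK2, against 70.1 ± 1.86 in 786-O and 79.6 ± 1.63 in 786-M1A (log2FC values -1.24 and -1.05, edgeR adjusted p = 1.13e-17 and 1.54e-16). *IREB2*, named after its values were seen, had 84.8 ± 1.96, 123 ± 4.30 and 75.2 ± 3.11 CPM. It was higher in 786-O (log2FC 0.54) and lower in 786-M1A (-0.17), and differed between the carcinoma lines by -0.71 (edgeR adjusted p = 6.60e-12). *STEAP3*, the reductase that acts on iron in endosomes after uptake by TFRC, had 77.5 ± 3.43, 154 ± 5.598 and 175 ± 3.88 CPM. *TF*, *HEPH*, *HAMP* and *FTMT*, which encode transferrin, a ferroxidase, hepcidin and mitochondrial ferritin, had at most 12 counts in a library and were not tested.

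Among 12 regulators of ferroptosis, 4 were higher and 8 lower in 786-O, and 4 were higher and 6 lower in 786-M1A. Again 84.2% and 85.0% of all genes tested were called in either direction. *SAT1*, a polyamine acetyltransferase linked to lipid peroxidation, had 48.3 ± 3.91 CPM in HK2, against 19.3 ± 2.10 in 786-O and 19.0 ± 1.13 in 786-M1A. *HSPB1*, a small heat shock protein, had 569 ± 36.6, 987 ± 109.9 and 1309 ± 138 CPM, and was above HK2 by log2FC values of 0.79 and 1.20 (edgeR adjusted p = 1.48e-04 and 1.01e-05).

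The identity of the lines was checked on marker genes. Of 11 proximal tubule markers, the 3 named at the outset were at 0 in all 9 libraries, while *GGT1* was between 79.2 and 109 CPM. *CDH6*, with most of the list's counts, was between 856 and 923 CPM in HK2, 395 and 422 in 786-O and 257 and 276 in 786-M1A. *ANPEP* went the other way, between 1.53 and 1.86 CPM in HK2, 109 and 115 in 786-O and 18.8 and 20.4 in 786-M1A. The summed level of the list ran from 970 to 1036 CPM in HK2, 594 to 614 in 786-O and 376 to 383 in 786-M1A. Of 8 ccRCC markers, *NDUFA4L2* had at most 8 counts, and in all lines *ANGPTL4* was between 2.16 and 4.03 CPM and *PAX8* between 160 and 193 CPM. Others were higher in the carcinoma lines. *CD70* was between 58.5 and 63.5 CPM in HK2, 320 and 358 in 786-O and 452 and 520 in 786-M1A. In the same order *EGLN3* was between 1.45 and 1.91, 44.8 and 56.4, and 124 and 130 CPM, and *PAX2* between 2.95 and 4.03, 23.6 and 26.0, and 9.73 and 12.1 CPM. That list summed to between 1578 and 1667 CPM in HK2, 5349 and 5481 in 786-O and 7234 and 7507 in 786-M1A, most of it *VIM*. Of 5 epithelial markers, *EPCAM* was between 69.0 and 81.1 CPM in HK2, no more than 0.609 in 786-O, and 8.12 to 9.35 in 786-M1A. *KRT19* was between 102 and 109.6 CPM in HK2, 5.82 and 5.94 in 786-O and 172 and 210.1 in 786-M1A, its highest level. The epithelial list summed to between 1251 and 1296, 453 and 490.2, and 723 and 823 CPM. Of 9 markers of other cell types, *PTPRC*, *UMOD* and *AQP2* were at 0, 6 had at most 3 counts in any library, and the list summed to between 103 and 116, 290.3 and 358, and 335 and 336 CPM, mainly *COL1A1* in 786-O and *PDGFRB* in 786-M1A. The part of these differences in those of the members was not tested.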

How the data were processed

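RNA libraries of HK2, 786-O and 786-M1A (3 each) were made by the authors with TruSeq Stranded mRNA and sequenced on a NextSeq. The deposited values are raw read counts per NCBI gene, which the authors made with Rsubread on hg38; the submitters' processing notes name featureCounts. The annotation version, strand setting and treatment of multi-mapping reads are not given in the sources used here. The filter, log2 transformation, VSN and limma of the study are not part of the deposited counts.

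Symbols of RefSeq matched 27745 of 28395 identifiers. Counts were normalized by TMM (factors between 0.964 and 1.03) in edgeR 4.0.16 (R 4.3.3), and genes averaging 50 counts or more per library were tested in a single robust quasi-likelihood fit of the 9 libraries, with Benjamini-Hochberg adjustment over 12695 genes. The biological coefficient of variation was 3.94%. Ratios used 0.5 added to each count, log2 CPM for single-gene permutation tests a prior count of 2. Positions, exon lengths and IREs came from GENCODE release 44 on GRCh38. Alternatives were RLE and upper-quartile factors, DESeq2 1.42.0, limma 3.58.1 on quantile-normalized log2 counts (0 set to 0.5), no filter, at least 10 counts in every library, the 2 lines compared alone, the replicate number as a block, 2 added to ratios, and leaving out each library. The fits were tested on simulated data. No 2 libraries were identical.

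The members and lists were chosen with earlier results of these data known. Beyond the members, genes of the lists were named when past the threshold and at least 2-fold different in any comparison, at most 5 per list and comparison by size, *ACSL3* for its ratio, and the 3 nearest patterns of members whose line means ranged over at least 1 on the log2 scale. Some genes that this rule names are not reported here. Intervals and the limit of 3 counts cover counting error only. The other steps ran in Python 3.11.15 (matplotlib 3.10.9, scipy 1.17.1, pandas 2.3.3, numpy 2.4.6).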

Additional observations from a re-analysis of the deposited data

Results flagged for a closer look

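For 6 members the difference from HK2 was itself different in 786-M1A and in 786-O, by edgeR's test of 786-M1A against 786-O (adjusted p under 0.05, 3 libraries of each line). On the log2 scale, 786-M1A minus 786-O, this was -0.55 for *SLC7A11*, 0.18 for *GPX4*, -0.18 for *AIFM2*, -0.15 for *TFRC*, -0.33 for *FTL* and -1.70 for *SLC40A1*. These were 6 of 10 members, and 56.2% of all genes tested were called, so the share was near the background. *SLC40A1* entered this test only through its counts in HK2. The call of *TFRC* was lost without replicate 1 of 786-M1A and without replicate 1 of 786-O. That of *GPX4* was lost with limma on quantile-normalized log2 counts (adjusted p = 0.0638). In each of the 6 the libraries of the 2 lines did not overlap. That adds no support, because the 6 were picked by their call in the same libraries. For *SLC7A11* the difference brought 786-M1A nearer to HK2, and for the other 5 farther from it.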

How the results depend on the processing

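The number of members called stayed at 9 for 786-O against HK2 under all alternatives run, was 9 or 10 for 786-M1A against HK2 and 6 or 7 for 786-M1A against 786-O. Calls in the other lists ran from 55 to 62, 54 to 57 and 35 to 42. Of the single log2 fold changes of the 10 members under alternatives, 496 kept direction and call, 5 gained a call, 4 lost it and 4 turned direction, none of those 4 called. The 4 were *GPX4* in 786-O against HK2 under limma on quantile-normalized log2 counts (-0.015) and *FTH1* in 786-M1A against 786-O under the same limma fit (-0.059), without replicate 2 of 786-O (-0.026) and without replicate 1 of 786-M1A (-0.034), its range over the libraries left out being -0.034 to 0.060; the cause was not tested. *NCOA4* in 786-M1A against 786-O was called with upper-quartile factors (-0.090, adjusted p = 0.0422), limma (-0.13, adjusted p = 0.0332) and the 2 lines alone (-0.087, adjusted p = 0.0381), besides the fit given above. *SLC40A1* could not be tested in 786-M1A against 786-O with the 2 lines alone, where its mean was 30.2 counts. Taking replicate numbers as a block (replicate block), 9, 10 and 6 members and 61, 55 and 42 genes of the other lists were called, and 10680, 10804 and 7179 of all genes beside 10691, 10786 and 7132. Same-numbered libraries of 786-M1A and 786-O deviated together with correlations of 0.215, 0.0739 and 0.110 across genes, and 6 of 6 correlated best with their own number, a hint from the data; between 786-O and HK2 they were -0.029, -0.057 and -0.051, and between 786-M1A and HK2 -0.076, -0.17 and 0.038. The numbers were not taken as pairs. Depth limits *SLC40A1* in 786-M1A and *TFR2* in 786-O, which rest on 11 to 17 and 3 to 4 counts in a library.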
